A study of Mus musculus with 2 samples.

Results

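Laminins and nidogens are the proteins that set up a basement membrane. A laminin is a trimer of 1 alpha, 1 beta and 1 gamma chain, and each chain is the product of its own gene. The alpha chain carries most of the sites that bind cells, laminin trimers assemble into a sheet on the cell surface, and a nidogen ties that sheet to the type IV collagen network by holding a loop of the gamma chain. In skin, such membranes lie under the epidermis and around blood vessels, nerves, muscle cells and the dermal papilla of the hair follicle. The 9 genes described here were chosen by symbol as the laminin chains and nidogens of dermal basement membranes, and all 9 were found among the 27998 genes of the count tables. They code for the alpha chains alpha 2 (Lama2), alpha 4 (Lama4) and alpha 5 (Lama5), the beta chains beta 1 (Lamb1) and beta 2 (Lamb2), the gamma chains gamma 1 (Lamc1) and gamma 3 (Lamc3), and the nidogens nidogen 1 (Nid1) and nidogen 2 (Nid2).

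Single-cell RNA sequencing libraries were made from Tomato-positive dermal cells of healed skin wounds, sorted 3 days after re-epithelialization was complete. The control library came from SM22rtTA; tetO-Cre; R26-Tomato mice, and the SM22-SmoM2 library from SM22rtTA; tetO-Cre; R26-SmoM2/Tomato mice, in which a constitutively active Smoothened receptor switches on Hedgehog signaling. All mice were 4 to 5 weeks old and were fed chow that held doxycycline (20 g per kg) from day 1 after wounding. Both groups carried the rtTA under the SM22 (Tagln) promoter, which is active in smooth muscle cells and in wound fibroblasts. The sort for Tomato was thus aimed at cells that had used this promoter. Endothelial, Schwann and immune cells were found too, and how they came to be sorted was not tested. Wounds of several mice were pooled in each library. With 1 library per genotype, no test was possible and the genotype cannot be told apart from the library. Every interval below is a 95% interval that covers counting error only, and a difference is called by size alone, at 1.5-fold or more.

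After filtering, 2856 control cells and 1792 SM22-SmoM2 cells were kept, with a median of 8607.5 and 8837.5 unique molecular identifiers (UMIs) per cell. Cells were clustered without the 9 genes and the other basement membrane and laminin receptor genes given further on (57 genes in all), and named by marker genes. The control and SM22-SmoM2 libraries held 1090 and 1050 fibroblasts, 608 and 226 endothelial cells, 678 and 294 Schwann cells, 272 and 94 vascular muscle (mural) cells, and 82 and 33 immune cells. The names held against their markers: Pdgfra stood at 78.6 and 100.2 UMIs per 1000000 UMIs of the class (CPM) in the fibroblasts of the control and SM22-SmoM2 libraries and at most 5.95 CPM in endothelial, Schwann and muscle cells, Pecam1 at 1045 and 888 CPM in endothelial cells, Sox10 at 75.2 and 76.8 CPM in Schwann cells, and Rgs5 at 8499 and 8241 CPM in muscle cells. The 7 fibroblast markers summed to 53993 and 34327 CPM in the fibroblasts, control library first, and 3 of them were more than 1.5-fold lower. These were Dpt (1313 and 383.5 CPM), Dcn (7539 and 3079 CPM) and Lum (4323 and 1496 CPM). Lox, Col1a1 and Col1a2 were lower too, short of 1.5-fold, and only Pdgfra was higher. The Hedgehog target Ptch1 was at 12.2 CPM in fibroblasts of the control library and at 142.3 CPM in those of the SM22-SmoM2 library. A cluster of 94 control and 44 SM22-SmoM2 cells with endothelial and muscle markers together was left out, and 1 cluster of 48 cells, all from the SM22-SmoM2 library, could not be named and is described apart.

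The loop of the gamma chain that holds nidogen is the point where the laminin and nidogen genes of this set meet, so its coding sequence is shown for both gamma chains of the set. It was found as the stretch of 17 codons most like that of Lamc1 in the longest open reading frame of the reference transcript, and the capitals mark the 7 codons of the nidogen-binding loop.
Lamc1: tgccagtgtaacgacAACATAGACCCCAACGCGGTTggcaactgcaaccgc
Lamc3: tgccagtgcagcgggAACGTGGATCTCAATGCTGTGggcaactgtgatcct
On GRCm38 these stretches lie at chr1:153243346-153243396 on the minus strand, in exon 14 of Lamc1, and at chr2:31920583-31920633 on the plus strand, in exon 14 of Lamc3. Of the 51 bases of Lamc1, 35 were the same in Lamc3, and of the 7 loop codons of Lamc3 5 coded for the same residue as in Lamc1. Of this pair, Lamc1 was by far the more counted in all 4 lineages.

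The 9 genes were spread over 7 chromosomes. On GRCm38 (GENCODE M21), Lama2 lies on chromosome 10 from 26980036 to 27619758, Lama4 on chromosome 10 from 38965515 to 39110188, Lama5 on chromosome 2 from 180176373 to 180225859, Lamb1 on chromosome 12 from 31265234 to 31329644, Lamb2 on chromosome 9 from 108479736 to 108490530, Lamc1 on chromosome 1 from 153218922 to 153332786, Lamc3 on chromosome 2 from 31887291 to 31946539, Nid1 on chromosome 13 from 13437551 to 13512269 and Nid2 on chromosome 14 from 19751265 to 19811787. Lama4, Lamb1 and Lamb2 overlap no other annotated gene. Nid2 overlaps Rtraf on the opposite strand, and Lama2, Lama5, Lamc1, Lamc3 and Nid1 overlap less known genes or a microRNA gene. Of these, Gm36962 in Lama2, Mir7005 in Lama5 and Gm38009 in Lamc1 lie on the same strand, so reads there could be shared even if strand was used. Reads over genes on the opposite strand could be shared if strand was not used in counting, which is not given in the sources used here.

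Promoter sequences of RefSeq (GRCm38.p6, from 250 bases before to 50 bases after the start) were matched for 5 of the 9 genes, Lama2, Lama5, Lamb1, Lamb2 and Nid1, and not for Lama4, Lamc1, Lamc3 and Nid2. The pair of beta chains is shown, since Lamb1 was lower in SM22-SmoM2 fibroblasts while Lamb2 was not. Capitals mark the GC box GGGCGG, searched on both strands.
Lamb1 promoter, chr12:31265043-31265342, plus strand: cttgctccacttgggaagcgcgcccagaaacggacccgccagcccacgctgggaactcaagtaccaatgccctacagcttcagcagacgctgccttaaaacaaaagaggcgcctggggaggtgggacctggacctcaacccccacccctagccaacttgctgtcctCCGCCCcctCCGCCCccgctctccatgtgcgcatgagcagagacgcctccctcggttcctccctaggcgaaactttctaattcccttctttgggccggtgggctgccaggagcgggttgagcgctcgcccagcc
Lamb2 promoter, chr9:108479612-108479911, plus strand: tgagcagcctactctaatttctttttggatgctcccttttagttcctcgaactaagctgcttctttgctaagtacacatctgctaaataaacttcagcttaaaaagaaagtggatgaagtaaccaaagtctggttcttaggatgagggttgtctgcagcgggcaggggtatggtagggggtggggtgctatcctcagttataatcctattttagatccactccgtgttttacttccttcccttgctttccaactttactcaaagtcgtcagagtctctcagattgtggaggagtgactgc
The Lamb1 promoter held 2 GC boxes and 63.7% G and C, and the Lamb2 promoter held none and 44.0%, against a GC box in 35.7% of 32851 promoters of the same length and a median of 52.7% G and C. The binding sequence of the Gli factors of the Hedgehog pathway, GACCACCCA, searched on both strands, was in none of the 5 windows and in 0.253% of all promoters. These matches only describe the letters of the windows.

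The mix of chains differed between lineages. UMIs at the 3′ end count molecules and do not grow with transcript length, so the levels below can be set side by side between genes, apart from differences in capture. Immune cells are used as a reference for low levels, and how far their UMIs come from free RNA was not tested. The fibroblast marker Dcn stood at 456.9 and 517.0 CPM in control and SM22-SmoM2 immune cells, against 78.8 and 63.4 CPM in endothelial cells. The 8 Lama2 UMIs of control immune cells lay in 3 cells. In the control library the reference went from 1.43 CPM for Lamc3 to 51.4 CPM for Nid1. In the SM22-SmoM2 library it went from 0 UMIs for Lama5 and Lamc3, where the interval reaches 10.1 CPM, to 43.8 CPM for Nid1.

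**Figure D1:**
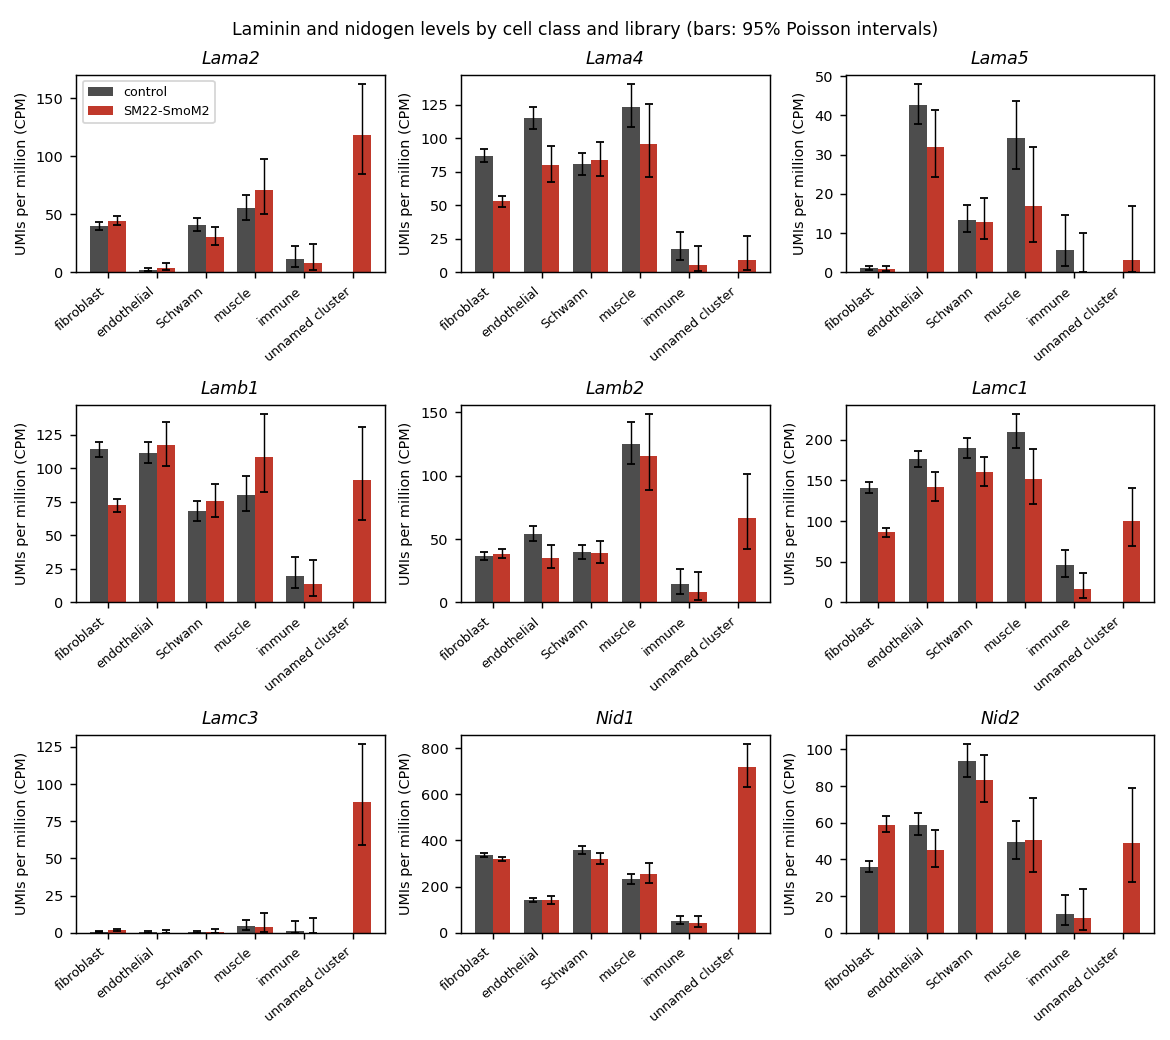
UMIs of each gene per 1000000 UMIs of the class (CPM, vertical axes) of the 9 genes in each cell class (horizontal axis) of the control library (grey) and the SM22-SmoM2 library (red), with 95% Poisson intervals that cover counting error only. Of the classes shown, Lama5 is highest in endothelial cells, though not apart from muscle cells by counting error. Lamb2 is highest in muscle cells and Nid2 in Schwann cells, and Lamc3 reaches 88.3 CPM in the unnamed cluster, which holds SM22-SmoM2 cells only.

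Among the alpha chains, Lama2, the alpha chain of muscle and nerve laminins, was of the 4 lineages highest in muscle cells. It was there at 55.0 CPM (44.9 to 66.7) in the control and 71.1 CPM (50.3 to 97.6) in the SM22-SmoM2 library. Fibroblasts followed at 40.02 and 44.5 CPM and Schwann cells at 40.9 and 30.2 CPM, and in the control library these lineages differed by less than their counting error (log2 ratio 0.03, -0.21 to 0.27). Fibroblasts were not uniform, and a cluster with 61 control fibroblasts had 107.1 CPM (83.8 to 134.9) of Lama2 in them, above the control muscle cells. In endothelial cells Lama2 was at 2.11 and 3.93 CPM, below the reference level in immune cells.

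Lama4, the alpha chain of vessel, fat and muscle laminins, was found in all 4 lineages. Its level was 123.4 CPM in muscle, 114.9 in endothelial, 86.9 in fibroblast and 80.7 in Schwann cells of the control library, and 95.4, 79.6, 52.8 and 83.7 CPM in the same lineages of the SM22-SmoM2 library. Muscle and endothelial cells of the control library were not told apart by counting error (log2 ratio 0.10, -0.12 to 0.32), and fibroblasts were the lowest lineage of the SM22-SmoM2 library (endothelial cells over fibroblasts 0.59, 0.32 to 0.86).

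Lama5, the alpha chain of mature vessels and of epithelia, was counted mainly outside fibroblasts. It was at 42.7 CPM (37.9 to 48.0) in control and 32.0 CPM (24.2 to 41.4) in SM22-SmoM2 endothelial cells, at 34.2 and 16.8 CPM in muscle cells and at 13.3 and 12.9 CPM in Schwann cells. In fibroblasts only 14 and 10 UMIs were counted, or 0.992 and 0.823 CPM, below the 5.71 CPM of control immune cells. Endothelial and muscle cells did not differ beyond counting error in either library (log2 ratios 0.32, -0.07 to 0.74, and 0.93, -0.10 to 2.13). The cluster left out for its endothelial and muscle markers had 54.1 CPM in the control and 43.7 CPM in the SM22-SmoM2 library.

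Of the beta chains, Lamb1, which pairs with most alpha chains in growing tissue, was at 114.0 CPM in control fibroblasts and 111.5 CPM in control endothelial cells, a difference within counting error (log2 ratio 0.03, -0.09 to 0.16). Endothelial cells of the SM22-SmoM2 library had 117.2 CPM, muscle cells 108.5 CPM, Schwann cells 75.3 CPM and fibroblasts 72.3 CPM, so that fibroblasts were the highest of the 4 lineages in one library and the lowest in the other, there not apart from Schwann cells by counting error (log2 ratio 0.06, -0.20 to 0.31). Lamb2, the beta chain of mature muscle and vessel membranes, was highest in muscle cells of both libraries, at 125.0 and 116.0 CPM, 2.30-fold above the next lineage in the control library (log2 ratio 1.20, 0.96 to 1.44) and 2.96-fold in the SM22-SmoM2 library (1.57, 1.06 to 2.07). The other 3 lineages had between 35.3 and 54.3 CPM of Lamb2.

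Lamc1, the common gamma chain, ranged from 141.0 CPM in fibroblasts to 209.4 CPM in muscle cells of the control library, and from 86.1 CPM in fibroblasts to 160.5 CPM in Schwann cells of the SM22-SmoM2 library. In the control library muscle cells (189.2 to 231.2 CPM) lay above endothelial cells (176.0 CPM, 166.0 to 186.4), with Schwann cells between them and not apart from either by counting error. In the SM22-SmoM2 library neighbours in the order of Schwann, muscle and endothelial cells were not apart by counting error. Fibroblasts lay below the next lineage in both (log2 ratios of endothelial cells over fibroblasts 0.32, 0.21 to 0.42, and 0.71, 0.51 to 0.91). Lamc3, a rarer gamma chain, had 6 UMIs in control and 18 in SM22-SmoM2 fibroblasts and 8 and 2 in muscle cells, and at most 1 in the endothelial and in the Schwann cells of each library.

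Nid1 was the most counted of the 9 genes in fibroblasts, Schwann and muscle cells. It was at 358.6 CPM in Schwann and 336.0 CPM in fibroblast cells of the control library and at 321.1 and 319.0 CPM in the SM22-SmoM2 library, then 232.4 and 254.4 CPM in muscle and 139.6 and 141.9 CPM in endothelial cells. Nid2 was highest in Schwann cells, at 93.6 CPM (85.1 to 102.8) in the control and 83.2 CPM (71.1 to 96.8) in the SM22-SmoM2 library. In the control library fibroblasts had the lowest Nid2 of the 4 lineages, at 35.99 CPM, and in the SM22-SmoM2 library they were second, at 59.0 CPM.

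Shares of cells followed the levels. After each cell was thinned to 2500 UMIs, Nid1 was seen in 53.7% of control and 54.9% of SM22-SmoM2 fibroblasts, Lamc1 in 26.1% and 16.1%, Lamb1 in 25.1% and 16.4%, Lama4 in 18.1% and 11.2%, and Nid2 in 7.80% and 13.6%. Without thinning these shares were 93.1% and 91.7%, 71.7% and 52.0%, 66.0% and 45.5%, 53.5% and 37.6%, and 32.8% and 45.4%, at median depths of 12473 and 11185.5 UMIs. In thinned control immune cells the same genes were seen in 4.88%, 7.32%, 2.44%, 1.22% and 1.22% of 82 cells, whose median depth before thinning was 7468 UMIs.

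**Figure D2:**
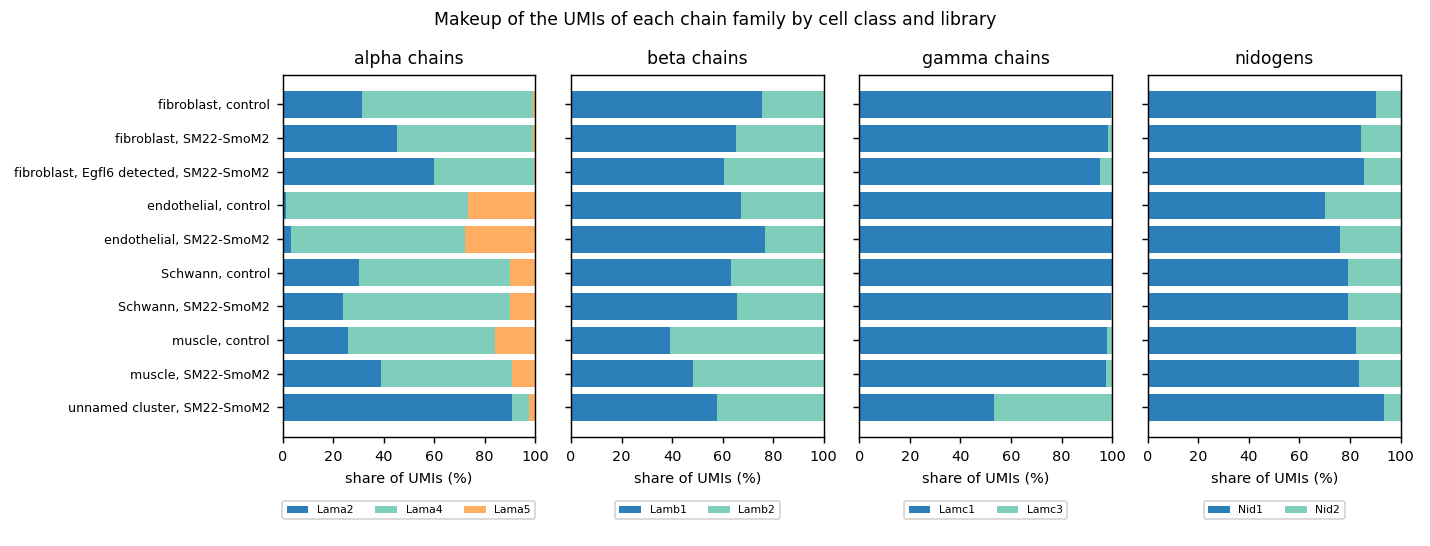
Share of the UMIs of the alpha chains, beta chains, gamma chains and nidogens (percent, horizontal axis) taken by each gene, by cell class and library. Lama5 takes 26.7% of alpha chain UMIs in control endothelial cells and 0.775% in control fibroblasts, and Lamc3 takes 46.8% of gamma chain UMIs in the unnamed cluster.

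Set as shares within a chain family, the mixes were as follows. Of the alpha chain UMIs of control fibroblasts, 67.9% (65.7 to 70.1, exact Clopper-Pearson interval) were Lama4 and 31.3% Lama2, and of those of SM22-SmoM2 fibroblasts 53.8% (50.9 to 56.7) were Lama4 and 45.3% Lama2. Endothelial cells paired Lama4 (71.9% and 68.9%) with Lama5 (26.7% and 27.7%), with little difference between libraries. Schwann cells had all 3 alpha chains, with Lama2 at 30.3% and 23.8% and Lama5 at 9.89% and 10.2%. So did muscle cells, with Lama2 at 25.9% and 38.8% and Lama5 at 16.1% and 9.18%. Of the beta chain UMIs, Lamb2 made up 60.9% (55.9 to 65.8) in control muscle cells and 24.4% (22.6 to 26.3) in control fibroblasts. In the SM22-SmoM2 library these shares were 51.7% (42.4 to 60.9) and 34.6% (32.1 to 37.3). Nid2 made up 9.67% of nidogen UMIs in control fibroblasts, 15.6% in SM22-SmoM2 fibroblasts, and 29.7% and 24.0% in endothelial cells.

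Within the endothelial cells, the cluster led by Rbp7 and Cldn5 (182 control and 44 SM22-SmoM2 cells) had the highest control levels of all 6 genes given here. Its levels were 151.5 CPM of Lama4, 55.2 of Lama5, 140.7 of Lamb1, 69.5 of Lamb2, 229.2 of Lamc1 and 105.7 of Nid2, and Nid2 was at 38.0 CPM in the cluster led by Selp, Rnd1 and Csf3 and at 28.4 CPM in that led by Ccl21a, Lrg1 and Ackr1. In the control library Lama5 was not apart from the Selp cluster by counting error (log2 ratio 0.37, -0.01 to 0.75). Nid1, not among the 6, was level between these clusters (0.01, -0.21 to 0.22). In the SM22-SmoM2 library Nid2 was again highest in the Rbp7 cluster, at 94.6 CPM against 34.0 and 29.9 CPM. Lamb1 was there highest in the Ccl21a cluster, at 135.8 against 127.1 CPM in the Rbp7 cluster, within counting error (0.10, -0.42 to 0.63).

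In fibroblasts, 3 laminin chains were lower and 1 nidogen was higher in the SM22-SmoM2 library. Lama4 was at 86.9 CPM in control cells (1227 UMIs) and at 52.8 CPM in SM22-SmoM2 cells (642 UMIs), with a log2 ratio of -0.72 (-0.86 to -0.58). Lamb1 was at 114.0 and 72.3 CPM (-0.66, -0.78 to -0.54), and Lamc1 at 141.0 and 86.1 CPM (-0.71, -0.82 to -0.60). These 3 chains can form the alpha 4, beta 1, gamma 1 trimer, and the counting intervals of the 3 ratios overlap. Beta 1 and gamma 1 chains also join other alpha chains, and whether the 3 genes differed as a unit was not tested.

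Nid2 went the other way, from 35.99 CPM (508 control UMIs) to 59.0 CPM (717 SM22-SmoM2 UMIs), 1.64-fold higher (log2 ratio 0.71, 0.55 to 0.88). Lama2 (log2 ratio 0.15, -0.02 to 0.33), Lamb2 (0.06, -0.12 to 0.24) and Nid1 (-0.07, -0.14 to -0.01) were close to level. Lama5 and Lamc3 had fewer than 50 UMIs over both libraries and were not counted among the genes compared.

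Of the 7 members compared in fibroblasts, 1 was thus at least 1.5-fold higher and 3 at least 1.5-fold lower, where 11% of 11470 genes were higher and 12.6% lower. Their median log2 ratio was -0.07 and that over all genes -0.08. In endothelial cells 0 of 7 were higher and 1 was lower (all genes 3.01% and 8.33%): Lamb2, at 54.3 and 35.3 CPM (log2 ratio -0.62, -1.03 to -0.23). Lama4 (-0.53), Lama5 (-0.42), Lamc1 (-0.32) and Nid2 (-0.39) were also lower there, short of 1.5-fold but with intervals below 0, and the median over the 7 was -0.39 against -0.10 over all genes. Lymphatic markers summed to 1273 and 280.4 CPM over 5 genes in these endothelial cells, with none at 0, and most of it was Ccl21a, at 1180 and 227.7 CPM. Lyve1 (31.7 and 8.97 CPM) and Flt4 (22.1 and 7.85 CPM) were lower too. Prox1 (10.8 and 10.7 CPM) and Mmrn1 (28.4 and 25.2 CPM) were close to level. Median depth was 8724 and 6260 UMIs. The part of lymphatic cells and of depth in these differences was not tested. By cluster, Lamb2 was at 45.2 and 34.0 CPM in the cells led by Selp, at 47.5 and 29.9 CPM in those led by Ccl21a and at 69.5 and 48.7 CPM in those led by Rbp7, with intervals that overlap between the libraries in each. In Schwann cells 0 of 8 were past 1.5-fold in either direction (all genes 4.47% and 7.69%). In muscle cells 0 of 8 were higher and 1 was lower (all genes 4.54% and 11.8%): Lama5, with 64 and 9 UMIs (-1.02, -2.22 to -0.01). The 8 muscle markers summed to 13988 and 11756 CPM in these cells, with none at 0, and 2 of them were more than 1.5-fold lower, the contractile genes Myh11 at 246.3 and 106.6 CPM and Acta2 at 2854 and 1214 CPM. The part of such a difference in cell make-up was not tested.

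**Figure D3:**
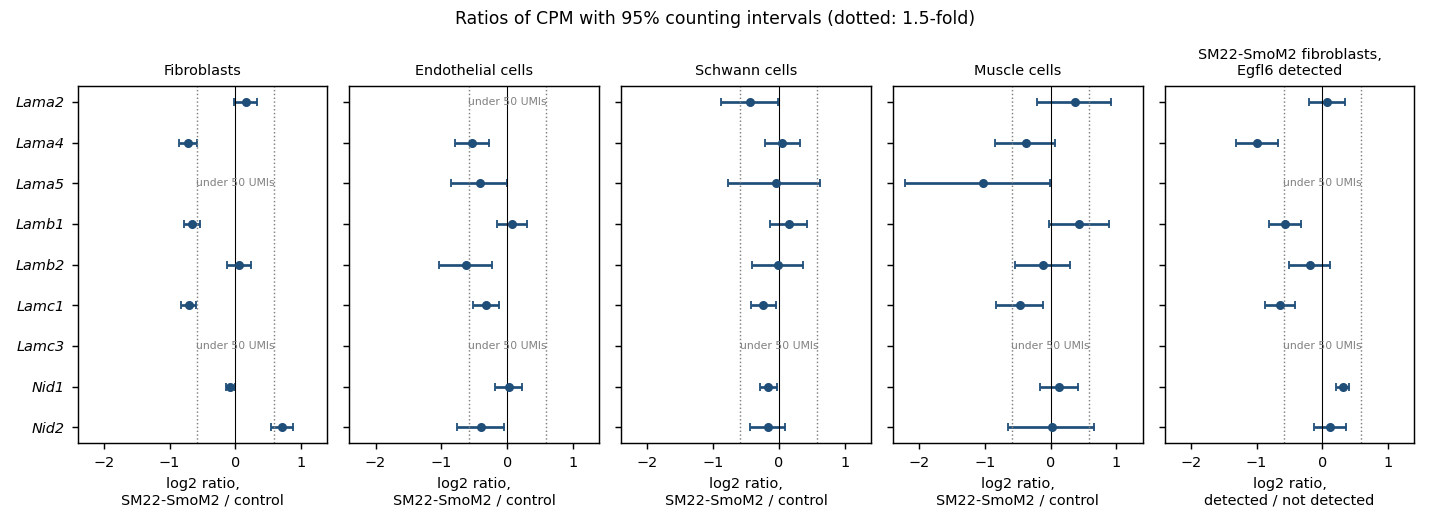
log2 ratios of CPM of the SM22-SmoM2 over the control library in 4 lineages, and of SM22-SmoM2 fibroblasts with over those without an Egfl6 UMI, with 95% counting intervals and dotted lines at 1.5-fold. Lama4, Lamb1 and Lamc1 lie past the lower line in the fibroblast panel and Nid2 past the upper one, and Lama4 and Lamc1 lie past the lower line in the Egfl6 panel.

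Levels differed between fibroblast sub-clusters, and most sub-clusters came almost wholly from a single library. Sub-cluster and genotype thus cannot be told apart for most of these cells, and the part of either in the difference was not tested. Fibroblasts were split into 13 sub-clusters, of which only 3 had at least 50 cells of each library. The sub-cluster led by Ccl21a, Wnt2 and Nov (170 control and 5 SM22-SmoM2 cells) had the highest levels of Lama4, Lamb1 and Lamc1 of any sub-cluster, at 146.4, 147.2 and 201.8 CPM in its control cells, and the lowest Nid2, at 10.9 CPM. The sub-cluster led by Tslp, Cxcl2 and Ptx3 (108 control cells) was alike, with 130.1, 142.7 and 185.9 CPM and 14.0 CPM of Nid2.

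On the other side stood 2 sub-clusters almost wholly of SM22-SmoM2 cells. That led by Fam212a, Sox11 and Ifitm1 (2 control and 168 SM22-SmoM2 cells) had 10.4 CPM of Lama4 (17 UMIs), 54.6 of Lamb1 and 58.3 of Lamc1, with 62.0 CPM of Nid2. That led by Ifitm1, Rasgrp2 and Pfn2 (8 and 133 cells) had 25.9, 26.6 and 35.0 CPM, with 74.6 CPM of Nid2, the second highest Nid2 after the 83.1 CPM of the small sub-cluster led by Sfrp5, Krt19 and Gjb2. Nid1 ranged from 238.0 to 428.4 CPM over the sub-clusters of each library with at least 30 cells.

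Within the 3 sub-clusters that both libraries filled, no member was past 1.5-fold when their cells were pooled, with log2 ratios of 0.13 for Lama4, -0.21 for Lamb1, -0.18 for Lamc1 and 0.02 for Nid2. With both libraries together, Ptch1 was at 10.57 CPM in the sub-cluster led by Crabp1 and at 12.99 CPM in that led by Mmp3. In the cycling cells it was at 86.16 CPM, and in all SM22-SmoM2 fibroblasts at 142.3 CPM. The pooled ratios thus cannot be read as cells with against cells without Hedgehog activity, which was not tested. The sub-clusters did not behave alike. Lama2, close to level over all fibroblasts, was lower in the SM22-SmoM2 cells led by Crabp1, at 37.7 and 23.6 CPM (-0.67, -1.26 to -0.12), and higher in the cycling cells, at 24.5 and 47.6 CPM (0.96, 0.23 to 1.71), on 34 and 45 SM22-SmoM2 UMIs. In the cells led by Crabp1, Prss35 and Mmp11 (282 and 118 cells) Lama4 was at 45.7 and 60.5 CPM (0.40, 0.01 to 0.79). In those led by Mmp3, Ctla2a and Mmp13 (228 and 113 cells) it was at 83.4 and 104.2 CPM (0.32, 0.01 to 0.63). Lama4 was thus higher in the SM22-SmoM2 library in both. Lamb1 and Lamc1 did not follow it in the Crabp1 cells, with log2 ratios of -0.37 (-0.74 to -0.01) and -0.26 (-0.59 to 0.07). In the Mmp3 cells they were at 0.05 (-0.21 to 0.31) and 0.14 (-0.11 to 0.38). In the cycling cells (56 and 70 cells) the SM22-SmoM2 library was lower, with Lama4 at 70.6 and 33.8 CPM (-1.06, -1.71 to -0.45), Lamb1 at 113.9 and 64.5 CPM (-0.82, -1.29 to -0.36) and Lamc1 at 126.2 and 63.4 CPM (-0.99, -1.46 to -0.54). Of these cycling cells, 3 in the control and 26 in the SM22-SmoM2 library had an Egfl6 UMI. The sub-cluster led by Penk, Mest and Cldn1 had too few control cells for this set (30 control and 199 SM22-SmoM2 cells). Its Ptch1 was at 218.7 CPM with both libraries together. Lama4 was there at 85.7 and 52.6 CPM, Lamb1 at 113.3 and 78.7 CPM, and Lamc1 at 165.3 and 85.7 CPM. The intervals of the libraries overlapped for Lama4 and Lamb1 but not for Lamc1.

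**Figure D4:**
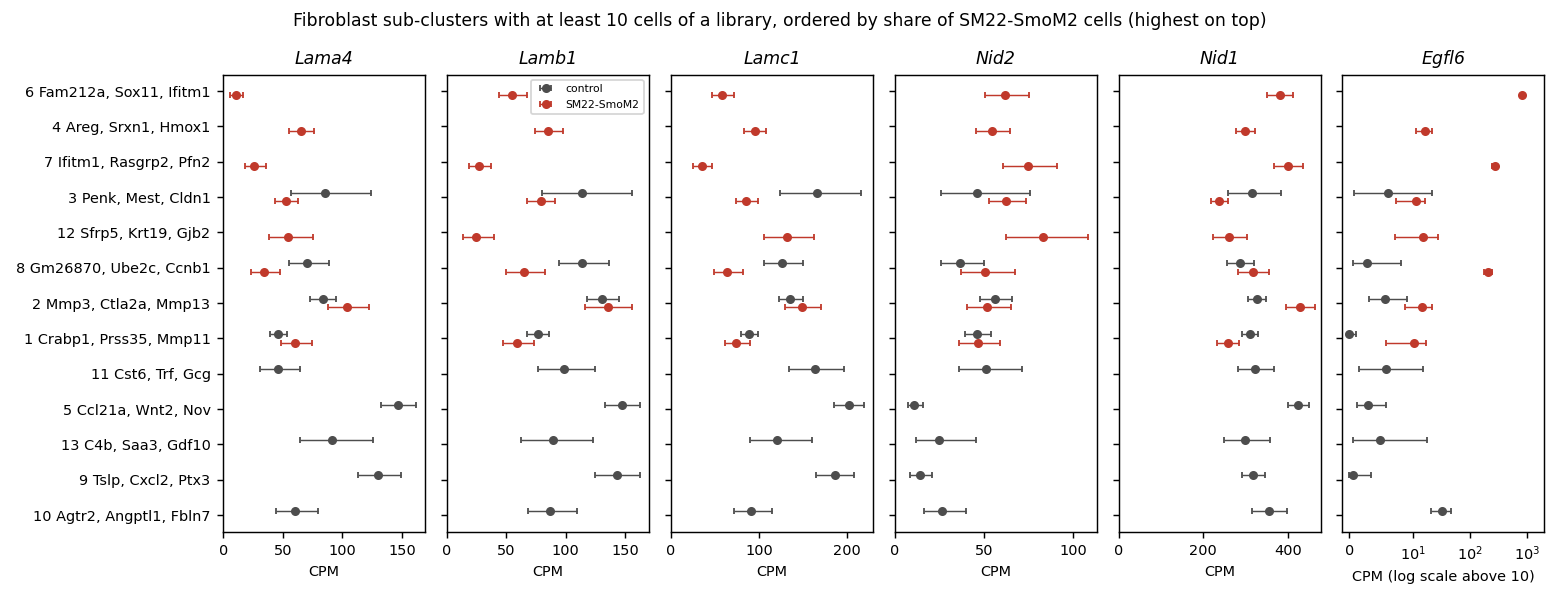
CPM of Lama4, Lamb1, Lamc1, Nid2, Nid1 and Egfl6 (horizontal axes, the last on a log scale above 10) in the fibroblast sub-clusters named by number and leading genes, ordered from mostly control cells (bottom) to mostly SM22-SmoM2 cells (top), with 95% Poisson intervals. Sub-clusters 6 and 7, with the lowest Lama4, are those with the most Egfl6, and sub-clusters 5 and 9, with the highest Lama4, have the lowest Nid2.

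Markers of other cell types also differed between these fibroblasts. Lymphatic endothelial markers summed to 28.0 CPM over 5 genes in the control and 1.73 CPM in the SM22-SmoM2 fibroblasts, with none of the 5 at 0 in either, and nearly all of it was Ccl21a, at 110.7 CPM in the sub-cluster it leads, where the other 4 stood at 1.47 to 3.68 CPM. Melanocyte markers summed to 17.1 and 0.741 CPM over 4 genes, with 0 and 3 of them at 0. Blood endothelial markers summed to 80.8 and 77.9 CPM over 8 genes and muscle markers to 354.8 and 279.1 CPM over 8 genes, with none at 0. Perineurial markers summed to 25.5 and 37.2 CPM over 4 genes, and all 4 were higher in the Sfrp5 sub-cluster than in other fibroblasts, with Lypd2 at 131.7 against 1.72 CPM. Without the 3 sub-clusters in which a marker of lymphatic, perineurial or melanocyte cells was among the leading genes (Ccl21a, Lypd2 and Mlana), only Lamc1 stayed past 1.5-fold (log2 ratio -0.62), with Lama4 at -0.48, Lamb1 at -0.53 and Nid2 at 0.45. The part of such cells in the difference was not tested. The calls also hang on how fibroblasts are delimited: with Leiden clustering or with more clusters (K = 30 and 20), no member was past 1.5-fold, and with the latter Lama4 was at -0.38, Lamb1 at -0.51, Lamc1 at -0.52 and Nid2 at 0.58. These settings also kept fewer fibroblasts. Leiden clustering kept 597 control and 834 SM22-SmoM2 fibroblasts and left 170 cells unnamed. With K = 30 and 20 these numbers were 989, 771 and 323.

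Egfl6 codes for an extracellular matrix protein that binds integrins and is deposited at basement membranes. In the SM22-SmoM2 library it was at 163.5 CPM in fibroblasts and at 4.95 CPM in Schwann, 6.73 CPM in endothelial and 1.87 CPM in muscle cells, and 28.1% of fibroblasts had at least 1 UMI against 1.36% of Schwann cells and 3.03% of immune cells (1 of 33), at median depths of 11185.5, 5545.5 and 9324 UMIs. Of control fibroblasts 3.49% had one. SM22-SmoM2 fibroblasts with Egfl6 (295 cells, median 9942 UMIs) were compared with those without (755 cells, median 11782 UMIs).

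Fibroblasts with Egfl6 had a lower level of the same 3 chains. Lama4 was at 30.7 CPM (99 UMIs) with and 60.9 CPM (543 UMIs) without Egfl6, which gives a log2 ratio of -0.99 (-1.31 to -0.68). Lamc1 was at 61.0 and 95.2 CPM (-0.64, -0.87 to -0.42). Lamb1, at 53.6 and 79.1 CPM, fell just short of 1.5-fold (-0.56, -0.81 to -0.32).

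Nid1 was somewhat higher in the cells with Egfl6, at 371.8 against 299.96 CPM (0.31, 0.21 to 0.41), while Nid2 (62.6 and 57.7 CPM), Lama2 (46.2 and 43.9 CPM) and Lamb2 (34.7 and 39.7 CPM) differed by less than counting error. Lama5 (1 and 9 UMIs) and Lamc3 (10 and 8 UMIs) were under 50 UMIs. Of the 7 members compared, 0 were at least 1.5-fold higher and 2 lower, where 8.3% of 9923 genes were higher and 12.4% lower, and their median log2 ratio was -0.19 against -0.04 over all genes. In control fibroblasts, where 38 cells had an Egfl6 UMI, the log2 ratios were 0.12 for Lama4, 0.20 for Lamc1 and 0.07 for Lamb1. With K = 30 and 20, which left 87 fibroblasts with Egfl6, they were -0.02, -0.29 and -0.21 in the SM22-SmoM2 library.

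**Figure D5:**
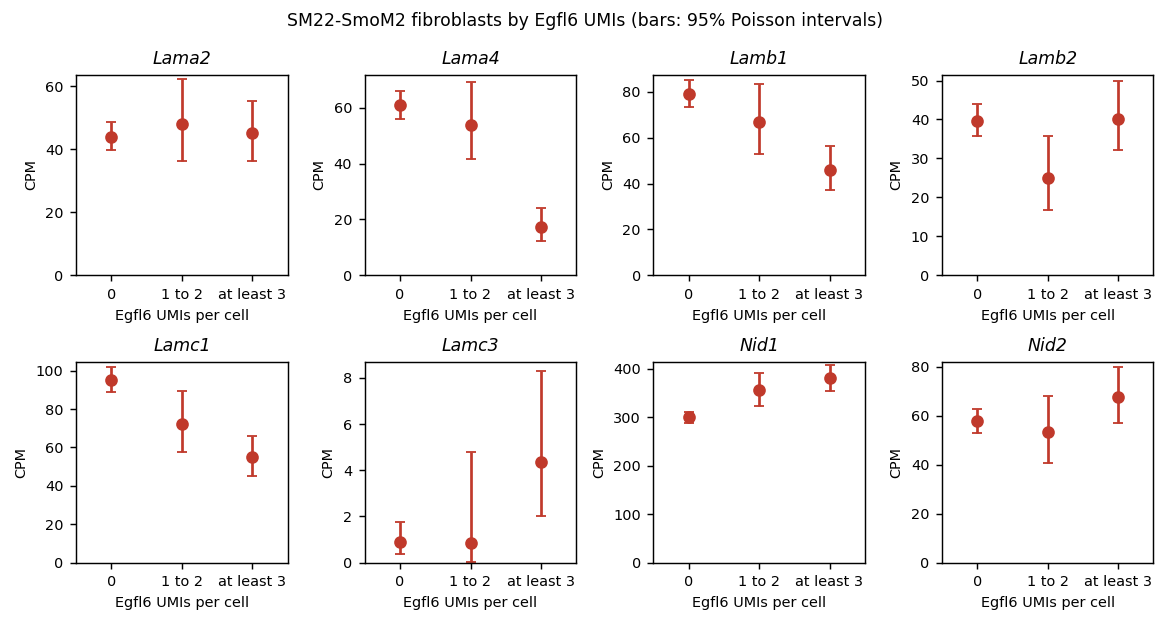
CPM of 8 of the 9 genes (vertical axes) in SM22-SmoM2 fibroblasts with 0, with 1 to 2 and with at least 3 Egfl6 UMIs (755, 95 and 200 cells), with 95% Poisson intervals. Lama4 goes from 60.9 to 54.0 to 17.5 CPM, while Lama2 and Lamb2 in the highest class lie within the interval of the class at 0.

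Split by the number of Egfl6 UMIs, the 755 cells with 0, the 95 cells with 1 to 2 and the 200 cells with at least 3 had Lama4 at 60.9, 54.0 and 17.5 CPM, Lamb1 at 79.1, 66.9 and 46.1 CPM, and Lamc1 at 95.2, 72.0 and 54.8 CPM. Nid1 was at 299.96, 355.9 and 380.5 CPM and Lamc3 at 0.897, 0.858 and 4.36 CPM (8, 1 and 9 UMIs). The lower Lama4 thus lay mainly in the cells with at least 3 Egfl6 UMIs, whose 12.2 to 24.2 CPM did not overlap the 41.5 to 69.1 CPM of the cells with 1 to 2. Among alpha chain UMIs Lama2 made up 59.8% (53.5 to 66.0) of those in fibroblasts with and 41.5% (38.4 to 44.7) of those in fibroblasts without Egfl6.

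Egfl6 was concentrated in the Fam212a, Sox11 sub-cluster (144 of 168 cells) and in the Ifitm1, Rasgrp2 sub-cluster (63 of 133 cells). Only the latter held at least 30 cells of each kind, and there Lama4 was at 8.61 CPM (5 UMIs) in the 63 cells with and 39.5 CPM (29 UMIs) in the 70 cells without Egfl6 (-2.20, -3.93 to -0.81), and Lamb1 at 15.5 and 35.5 CPM (-1.19, -2.47 to -0.06). Lamc1, at 31.0 and 38.2 CPM, and Nid1, at 425.3 and 379.1 CPM, differed by less than counting error there. These UMI numbers are small, and only Nid1 and Nid2 reached 50 UMIs within this sub-cluster.

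The unnamed cluster of 48 SM22-SmoM2 cells (median 4703.5 UMIs), led by the agouti gene a, Ibsp and Cd24a, had a mix of chains of its own. Its cells had 121.7 CPM of Lef1, 337.9 of Alpl and 630.1 of Rspo3, against 0.905, 11.2 and 10.1 CPM in SM22-SmoM2 fibroblasts, and 322.6 CPM of Ptch1, genes that are used as marks of the dermal papilla and of Hedgehog activity. Pdgfra was at 143.1 CPM, but Lox at 9.13 CPM and Col1a1 at 2353 CPM lay below the 300.1 and 16015 CPM of fibroblasts.

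Lamc3 had 29 UMIs in this cluster, in 23 of the 48 cells, which is 88.3 CPM (59.1 to 126.8). In SM22-SmoM2 fibroblasts it was at 1.48 CPM (0.878 to 2.34), not above the 10.1 CPM that the interval of the 0 UMIs of immune cells allows, so no fold is given. Of the 18 Lamc3 UMIs of these fibroblasts, 13 lay in the Fam212a, Sox11 sub-cluster, at 7.98 CPM (4.25 to 13.6). The 29 UMIs of the unnamed cluster were 54.7% (40.5 to 68.4) of all Lamc3 UMIs of the library. Thinned to 2500 UMIs, 20.8% of the cells had one, against 0.476% of fibroblasts. Lamc3 thereby made up 46.8% of gamma chain UMIs there, and Lamc1 the rest, at 100.4 CPM.

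Nid1 was at 718.3 CPM (629.6 to 816.1), its highest level in any class, 2.25-fold over fibroblasts (1.17, 0.98 to 1.36), and was found in all 48 cells. Lama2, at 118.7 CPM, was 2.67-fold over fibroblasts (1.41, 0.91 to 1.88) and Lamb2 1.75-fold (0.80, 0.12 to 1.42). Lama4 was nearly missing, with 3 UMIs (9.13 CPM against 52.8 CPM in fibroblasts, log2 ratio -2.53, -4.81 to -0.98), so that Lama2 made up 90.7% (77.9 to 97.4) of alpha chain UMIs. The Fam212a, Sox11 sub-cluster of SM22-SmoM2 fibroblasts leaned the same way, with 82 Lama2, 17 Lama4 and 0 Lama5 UMIs. Lamb1 (0.34, -0.24 to 0.86), Lamc1 (0.22, -0.32 to 0.72) and Nid2 (-0.28, -1.09 to 0.43) did not differ from fibroblasts beyond counting error. Egfl6 stood at 149.1 CPM, close to the 163.5 CPM of fibroblasts.

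The other genes of the basement membrane give the setting. Of 26 network and linker genes 19 were compared in fibroblasts, of which 6 were at least 1.5-fold higher and 6 lower in the SM22-SmoM2 library, where 11% and 12.6% of all genes were. Egfl6, by which fibroblasts were split above, is among the higher network and linker genes. Of 18 laminin receptors 16 were compared, with 2 higher and 6 lower. The lists were chosen with earlier results of these data known, so these counts only describe them. The median log2 ratio was -0.22 over the network and linker genes and -0.35 over the receptors, against -0.08 over all genes. The highest ratios of these lists were those of Egfl6 (4.89 and 163.5 CPM, log2 ratio 5.06), the laminin receptor integrin alpha 6 (Itga6, 8.71 and 41.6 CPM, 2.26) and the type IV collagen chain Col4a1 (49.8 and 114.4 CPM, 1.20). Among the lowest were those of the heparan sulfate proteoglycan syndecan 2 (Sdc2, 451.9 and 134.7 CPM, -1.75) and the type IV collagen chain Col4a5 (3.75 and 1.399 CPM, -1.42).

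Between SM22-SmoM2 fibroblasts with and without Egfl6, 2 of 16 network and linker genes were higher and 7 lower, and 1 of 13 receptors was higher and 2 lower (all genes 8.3% and 12.4%), with medians of -0.55 and -0.01 against -0.04 over all genes. The highest ratios were those of Egflam (20.8 and 6.05 CPM, log2 ratio 1.78), a linker of the dystroglycan complex, of integrin alpha 1 (Itga1, 8.37 and 3.36 CPM, 1.31) and of Frem1 (16.4 and 7.51 CPM, 1.13), a protein of the membrane between epidermis and dermis. The lowest were those of Col18a1 (78.4 and 169.4 CPM, -1.11), Smoc2 (67.9 and 143.5 CPM, -1.08) and perlecan (Hspg2, 76.2 and 150.7 CPM, -0.98), which links laminin and collagen networks.

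The genes whose levels over the 20 clusters of all cells were most like those of each member are given with Pearson's r of log2(CPM + 10), as a description over 20 clusters that share 2 libraries. They were Rab34 (0.90) and Arhgef25 (0.89) for Lama2, Lamc1 (0.88) and Rhoc (0.86) for Lama4, the laminin receptor Bcam (0.95) and Pdlim5 (0.93) for Lama5, Pxdn (0.90) and Gna11 (0.88) for Lamb1, and Ginm1 (0.83) and Oaz2 (0.81) for Lamb2. They were Cyb5r3 (0.90) and Lama4 (0.88) for Lamc1, agouti (0.98) and Smoc1 (0.97) for Lamc3, Wipi1 (0.94) and Rcn2 (0.94) for Nid1, and Anapc16 (0.83) and Rassf1 (0.81) for Nid2. Lama4 and Lamc1 were thus each among the 2 closest genes of the other, and the likeness of Lamc3 rests on the unnamed cluster, where Lamc3 was at 88.3 CPM.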

How the data were processed

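Counts were deposited by the authors as whole UMI counts per gene and cell from 10x Chromium v2 libraries made with Cell Ranger (bcl2fastq, mm10, per the labels), with no normalization. The versions and the strand counted are not given in the sources used here. The deposited barcode list names the whole kit of 737280 barcodes and not the columns, so barcodes shared by the libraries could not be counted. Control and SM22-SmoM2 libraries held 2878 and 1802 barcodes, 30103855 and 17814222 UMIs after filtering, and 3128 to 65167 and 2538 to 38806 UMIs per cell.

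Cells with at least 200 genes and at most 10% mitochondrial UMIs were kept. Clustering was done with scanpy 1.11.5 and scikit-learn 1.9.0 (2000 variable genes, 20 principal components, k-means with 50 starts and K = 20, then K = 15 on the fibroblasts), without the members, the basement membrane lists and Egfl6. A cluster was named by a marker list with a mean log2 ratio to the median cluster of at least 1 and at least 3 markers at 10 CPM or more and 1.5 times the median. It was left out as mixed when its 10 leading genes held more markers of another class that had named a cluster. Lymphatic, perineurial and melanocyte lists named none, so 1 endothelial cluster and 3 fibroblast sub-clusters with 1 such marker there were kept. The score of 1 and the rule on mixed clusters were set after the clusters were seen, and they left out 94 control and 44 SM22-SmoM2 cells of 1 cluster, 17 and 2 cells of fibroblast sub-clusters, and 48 unnamed cells. Doublets were kept in the main analysis, and Scrublet (expected rate 5%) marked 5 control and 11 SM22-SmoM2 barcodes, too few to stand for a removal of doublets.

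The UMIs of each class were added up within a library and divided by all its UMIs (CPM). Intervals are exact: Poisson for CPM, Clopper-Pearson for shares and conditional binomial for ratios. A count of 0 was taken as 3 UMIs, and no ratio was made when both counts were 3 or fewer. Background shares cover genes with at least 50 UMIs over both classes, and Egfl6 was left out of the totals when cells were split by it. The ratio and its interval were tested on simulated data. With 1 library per genotype no p-value is given. Cells are not replicates, and wounds of several mice were pooled. The members and lists were chosen with earlier results of these data known. Genes named in the text are the 9 members, the 3 highest and 3 lowest ratios among basement membrane genes with at least 50 UMIs in each contrast, the 2 genes most like each member (among genes reaching 100 CPM in a cluster) and the 3 leading genes of clusters (at least 100 CPM, 10 CPM added). Some genes and clusters that these rules name are not reported here. Alternatives are listed in the closing section.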

Additional observations from a re-analysis of the deposited data

Results flagged for a closer look

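Nid2 differed in opposite directions between the libraries in 2 lineages. Its log2 ratio of SM22-SmoM2 over control was 0.71 (0.55 to 0.88) in fibroblasts and -0.39 (-0.76 to -0.04) in endothelial cells, so that the counting intervals lay on either side of 0. With 1 library per genotype the difference between lineages was not tested. The libraries also differed in the clusters they held, and the part of this in either ratio was not tested. In fibroblasts most sub-clusters came almost wholly from a single library, so that sub-cluster and genotype cannot be told apart there. Within the endothelial clusters led by Selp, Ccl21a and Rbp7, Nid2 was at 38.0 and 34.0, 28.4 and 29.9, and 105.7 and 94.6 CPM, and the Rbp7 cluster held 182 of 608 control and 44 of 226 SM22-SmoM2 endothelial cells. In the fibroblast sub-clusters with at least 50 cells from both libraries the pooled log2 ratio was 0.02. With both libraries together, the Hedgehog target Ptch1 was at 10.57 and 12.99 CPM in those led by Crabp1 and Mmp3. In the cycling cells it was at 86.16 CPM, again with both libraries together. The pooled ratio thus cannot be read as cells with against cells without Hedgehog activity, which was not tested.

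Of the other laminin chains, Lamb3, the beta chain of epidermal laminin, had 10 UMIs in all cells of the SM22-SmoM2 library, or 0.561 CPM (0.269 to 1.03), slightly above the 15 UMIs or 0.498 CPM (0.279 to 0.822) of the control library, and the intervals overlap. Of these UMIs, 9 in the SM22-SmoM2 and 3 in the control library lay in fibroblasts, and 10 of the control UMIs lay in 15 keratinocytes.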

How the results depend on the processing

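No paired analysis was possible because each genotype has 1 library. Between libraries in fibroblasts, 18 alternatives were run, of which 5 were chosen after seeing the data. The count of members at least 1.5-fold higher (1) became 0 with Leiden clustering and with K = 30 and 20. It also became 0 in the 3 sub-clusters in which both libraries had 50 or more cells, called shared here. These were taken pooled or, as an added alternative, with the ratios made within each combined into a single value per member. Without the 3 sub-clusters with a marker of another cell type among their leading genes (added), the count became 0 too. It became 2 with K = 12 and 10, with a minimum of 10 UMIs and with the unnamed cluster counted as fibroblasts (added). The count lower (3) became 0 with Leiden clustering, with K = 30 and 20, and in the shared sub-clusters (pooled or combined), and 1 without the 3 sub-clusters. Single shared sub-clusters did hold members past 1.5-fold. In the cycling cells Lama4 was at -1.06, Lamb1 at -0.82, Lamc1 at -0.99 and Lama2 at 0.96, and in the cells led by Crabp1 Lama2 was at -0.67. With Leiden clustering Lama4 was at -0.40 and Lamb1 and Lamc1 both at -0.58, just short of 1.5-fold, and with K = 30 and 20 they were at -0.38, -0.51 and -0.52. Lama4 reversed to 0.13 in the pooled and 0.087 in the combined value of the shared sub-clusters, which keep fewer cells by construction. Lamb1 and Lamc1 stayed below 0 and Nid2 above 0 in all 18 alternatives, though not in every single shared sub-cluster.

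Between Egfl6 classes, 19 alternatives were run, of which 2 were added. The count higher (0) became 1 with female cells alone (Nid1, the only member with 50 UMIs) and with a minimum of 10 UMIs (Lamc3). The count lower (2) became 0 with K = 30 and 20 (87 cells with Egfl6 left, Lama4 at -0.02), with female cells alone, within sub-clusters (1 sub-cluster, 2 members with 50 UMIs) and in the control library, and 1 with male cells alone and with the unnamed cluster counted as fibroblasts (added). In the control library Lama4 reversed to 0.12 and Lamc1 to 0.20. No fibroblast sub-cluster was led by Lef1, Alpl or Rspo3, so that alternative left out the cycling cells only. The cause of the other changes was not tested. The lineage with the highest level was kept for 15 to 18 of 18 pairs of member and library over 11 alternatives, and the pairs that changed involved Lama2, Lamb1, Lamc1 and Nid1. UMIs were few for Lama5 in fibroblasts and for Lamc3 outside the unnamed cluster, which limits any ratio of them there.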
